A study of Mus musculus with 10 samples.

Results

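The cytochrome P450 genes of crypts from the mouse distal colon were described over control, DSS and AOM+DSS. Members were the rows of both deposited tables whose symbol reads Cyp, a family number, subfamily letters and a gene number with nothing after it, which gave 92 of 23364 genes in 16 families and 39 subfamilies. The rule used no measured value, and 10 other P450-like symbols with a different ending, Cyp51 among them, lie outside it. Poly(A) RNA was sequenced from crypts shaken off the colon wall in EDTA. The 3 control libraries came from untreated mice. The 4 DSS libraries came from mice given dextran sulfate sodium, which injures the epithelium and brings on colitis. The 3 AOM+DSS libraries came from mice given azoxymethane, a DNA-alkylating carcinogen, and then DSS. The labels give no strain, age, dose or sampling time, and no group received azoxymethane alone.

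Cytochromes P450 are haem enzymes that insert an oxygen atom into their substrate, with electrons passed on by P450 reductase in the endoplasmic reticulum or by ferredoxin in mitochondria. Families 1 to 3 oxidise drugs, plant compounds and carcinogens, and many of their members also oxidise arachidonic acid. Family 4 hydroxylates fatty acids and leukotrienes, and the higher-numbered families work on sterols, bile acids, vitamin D, steroid hormones and retinoids. In the gut the epithelium holds most of these enzymes, where they meet food compounds first.

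The tables hold group means of normalized reads (reads divided by a size factor per library), whose printed digits gave back the whole reads of each library. All 92 members were recovered in control and AOM+DSS and 89 in DSS, the exceptions being Cyp2c55, Cyp2d34 and Cyp2s1. Libraries carry a letter within their group, a for the deepest, which says nothing of the labelled replicate numbers. Recovered reads ran from 15429377 to 22743748 per library in control and AOM+DSS. In DSS, where high means could not be resolved, they ran from 3614596 to 7292441, and the size factors of 0.645 to 1.27 give the relative depth. Some libraries stood apart in genes of other cells. Summed fibroblast and matrix markers (8 genes) were 2064 normalized reads in control b against 195 and 123 in the other control libraries. Summed smooth muscle markers (6 genes) were 11938 in AOM+DSS c against 260.3 and 200.2, and summed myeloid markers (7 of 8 recovered) were 13496 in AOM+DSS b against 5142 and 3862. The myeloid sum of the DSS libraries a to d was 2148, 5058, 343 and 383. None of 7 epithelial markers, Epcam and Cdh1 among them, passed the test in either comparison with control, and their summed means were 180674, 196587 and 173424 in control, DSS and AOM+DSS. Whether each library is a separate animal is not stated in the labels, so the p-values cover the spread between these samples alone, which may be technical.

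Crypts expressed 38 of the 92 members, taking a control mean of at least 10 normalized reads as expressed, in 18 of the 39 subfamilies. Another 15 members were listed at 0 in all groups, among them Cyp1a2, Cyp2c37, Cyp2c50, Cyp2c54 and Cyp2d40, and 34 were above 0 but under 10 everywhere. Divided by transcript length, which was known for 91 members, the control signal sat in few subfamilies. Cyp2d held 39.1% of the summed reads per kilobase of all members, Cyp2c 23.7% and Cyp4f 17.7%. Cyp2s1 alone held 6.30%, the Cyp3a subfamily 5.36%, Cyp2f2 1.98%, Cyp27a1 1.77% and the Cyp2j subfamily 1.57%. The single gene with the highest control level per kilobase was Cyp2d34, with 4379.6 normalized reads per kilobase, followed by Cyp2c55 with 2699 and Cyp2c68 with 1704. In DSS the order at the top turned. Cyp2c held 39.8% and Cyp2d 25.9% of the summed reads per kilobase, and Cyp2c55, whose rise passed no test, stood at 5773 against 2788 for Cyp2d34. The summed mean of the other 14 Cyp2c genes was 61.2% of control in DSS and 44.9% in AOM+DSS. In AOM+DSS the shares of Cyp2d and Cyp2c were 30.3% and 29.9%, and Cyp2j reached 3.83%. The Cyp1 family was near 0 throughout: summed means of the 2 Cyp1a genes were 0.322, 0.824 and 1.10 in control, DSS and AOM+DSS, and Cyp1b1 lay at 0.997, 0.395 and 6.82.

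**Figure D1:**
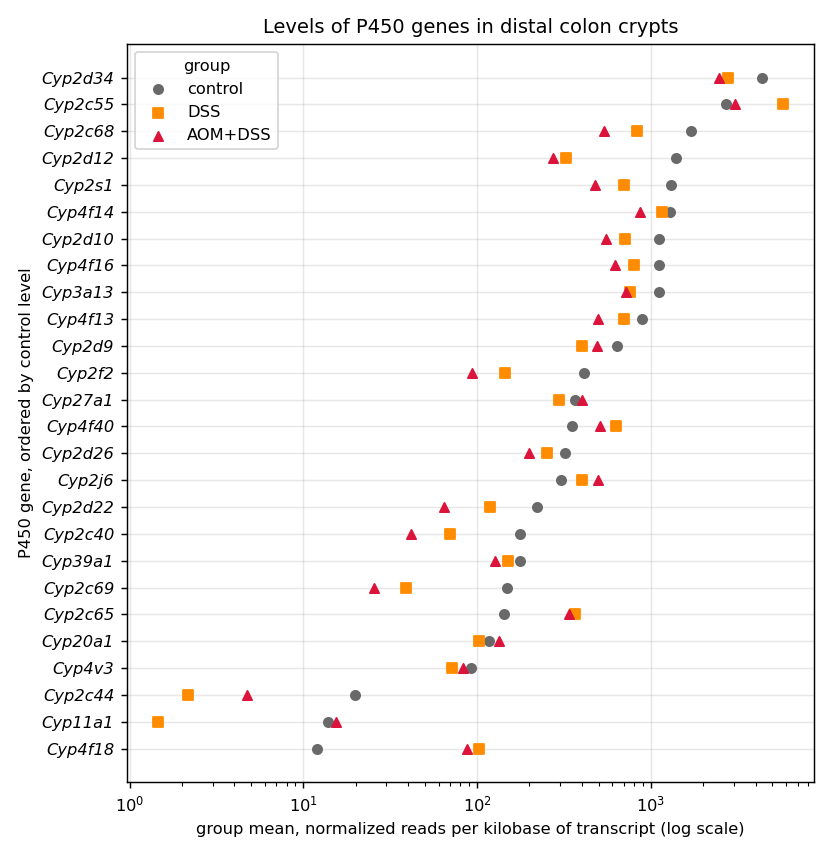
Group mean of normalized reads per kilobase of transcript (log axis) for the named P450 genes with a known length and a control mean above 0, except Cyp2b10, ordered by control level. Circles are control, squares DSS and triangles AOM+DSS. For Cyp2d12 the 3 points lie at 1388, 325 and 274, while for Cyp2c55 DSS lies highest at 5773.

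More members were lower than higher in both treated groups. In the authors' deposited table for DSS, 11 of 71 tested members fell and 3 rose at an adjusted p under 0.05, a share of 14 in 71 where 4.39% of all genes tested passed (1.78% lower and 2.61% higher). In the authors' deposited table for AOM+DSS, 11 of 75 tested members fell and 4 rose, where 8.89% of all genes tested passed (3.35% lower and 5.54% higher). Both comparisons share the 3 control libraries, so they are not independent of each other. Over the 38 members expressed in control, the median log2 ratio of means was −0.60 in DSS and −0.82 in AOM+DSS. Over all genes with a control mean of at least 10 it was 0.01 and −0.02. Of the 38 members, 33 and 30 lay below 0, and the share of all genes below 0 was not counted. The cut is on the control mean, which favours ratios below 0. With a mean of at least 10 in any group there were 43 members, and Cyp21a1 and Cyp2b10, which reach 10 in AOM+DSS alone, are not among the 38. The summed mean of all members was 43079 normalized reads in control, 37106 in DSS and 28195 in AOM+DSS, which is 86.1% and 65.4% of control. Cyp2c55 alone weighs much in these sums. Without it, the summed mean was 37694 normalized reads in control, 25589 in DSS and 22131 in AOM+DSS, which is 67.9% and 58.7% of control. In control the 3 libraries held 40198, 36191 and 36693 by this sum and in AOM+DSS 20718, 17889 and 27786, with no overlap. By libraries, 18 of 68 members with a read lay lower in every DSS library than in every control library and 7 higher, where 10.9% and 9.08% of all recovered genes did. In AOM+DSS 25 of 75 lay lower and 10 higher, where 17.8% and 20.7% of all recovered genes did. In a mixed sample, fewer cells of a type and less RNA per cell cannot be told apart. With limma the counts moved with the libraries left in, for the members and for all genes. This linear model on log2(normalized reads + 1) called 15 of 68 tested members in DSS and 19 of 75 in AOM+DSS with all libraries, where 5.66% and 17.2% of all genes passed. Without control a it called 1 (Cyp2c69) and 2 (Cyp2d13 and Cyp21a1), where 0.977% and 2.92% of all genes passed. Without control c it called 1 (Cyp2c69) and 3 (Cyp2d12, Cyp2d13 and Cyp21a1), where 1.10% and 3.91% passed. The log2 difference of Cyp2c40 in DSS was −1.35 with all libraries, −1.37 without control a and −1.32 without control c (adjusted p = 0.00575, 0.0520 and 0.0515). Without AOM+DSS a limma called 4 in AOM+DSS, where 3.93% of all genes passed, and without AOM+DSS c 25, where 24% passed.

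**Figure D2:**
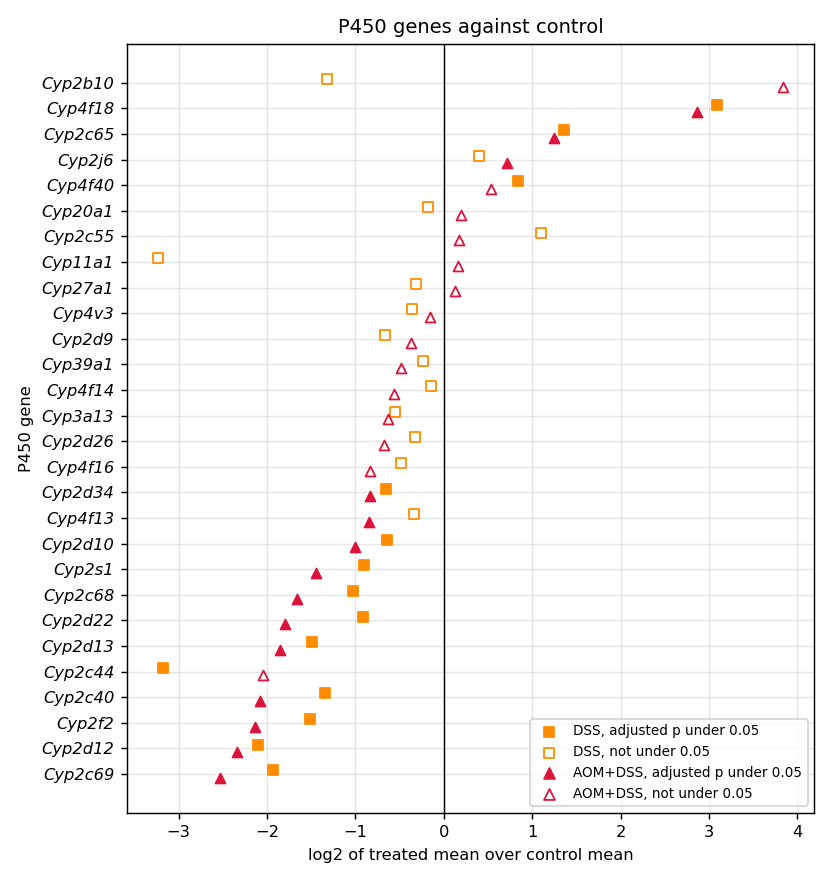
Log2 ratio of treated to control means for the named P450 genes with reads in control (horizontal axis), squares for DSS and triangles for AOM+DSS, filled where the authors' adjusted p is under 0.05. The filled points on the left run down to −2.53 for Cyp2c69 in AOM+DSS and −3.18 for Cyp2c44 in DSS, and those on the right reach 3.09 for Cyp4f18 in DSS.

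The Cyp2c genes, epoxygenases and hydroxylases of arachidonic acid and many drugs, held members that rose and members that fell. Of 15 members, 7 were expressed in control. Counted from the authors' deposited tables, 1 rose and 4 fell in DSS, and 1 rose and 3 fell in AOM+DSS. Of all genes tested, 4.39% passed in DSS and 8.89% in AOM+DSS. The array lies on chromosome 19 in RefSeq's GRCm38.p6, and Cyp2c65, which rose, lies beside Cyp2c55 at one end of the row of members, while Cyp2c68, Cyp2c40 and Cyp2c69, which all fell, are neighbours further along. Between and beyond them lie members that crypts hardly express: Cyp2c66, Cyp2c29, Cyp2c39 and Cyp2c38 on one side, with control means of 0 to 4.37, and Cyp2c37, Cyp2c54 and Cyp2c50 on the other, all listed at 0. Cyp2c67 lies next to Cyp2c68 and is expressed, with means of 32.2, 12.6 and 8.46 in control, DSS and AOM+DSS. Every treated library of Cyp2c67 lay below control, and the authors' deposited tables gave adjusted p = 0.578 and 0.178. The bases just upstream of the annotated start sites are shown for the 5 expressed genes with the highest means of this array, since 3 of them fell together, 1 rose and 1 passed no test. They are RefSeq sequences on GRCm38.p6, 250 bases each, at chr19:39006769-39007018 (plus strand) for Cyp2c55, chr19:39060756-39061005 (plus strand) for Cyp2c65, chr19:39741102-39741351 (minus strand) for Cyp2c68, chr19:39812815-39813064 (minus strand) for Cyp2c40 and chr19:39886770-39887019 (minus strand) for Cyp2c69.

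Cyp2c55: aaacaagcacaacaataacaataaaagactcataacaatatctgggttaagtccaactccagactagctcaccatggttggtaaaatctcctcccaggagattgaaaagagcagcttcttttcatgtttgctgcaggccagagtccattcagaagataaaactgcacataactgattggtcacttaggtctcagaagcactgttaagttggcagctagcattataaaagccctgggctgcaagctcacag
Cyp2c65: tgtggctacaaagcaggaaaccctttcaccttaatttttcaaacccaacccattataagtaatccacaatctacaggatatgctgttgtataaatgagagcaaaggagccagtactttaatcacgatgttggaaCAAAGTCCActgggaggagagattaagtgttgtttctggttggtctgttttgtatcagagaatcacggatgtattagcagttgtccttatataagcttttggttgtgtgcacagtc
Cyp2c68: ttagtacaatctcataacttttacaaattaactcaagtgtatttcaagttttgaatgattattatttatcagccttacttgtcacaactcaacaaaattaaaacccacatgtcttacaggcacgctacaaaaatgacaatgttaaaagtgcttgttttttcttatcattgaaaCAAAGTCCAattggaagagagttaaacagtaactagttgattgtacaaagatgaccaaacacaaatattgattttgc
Cyp2c40: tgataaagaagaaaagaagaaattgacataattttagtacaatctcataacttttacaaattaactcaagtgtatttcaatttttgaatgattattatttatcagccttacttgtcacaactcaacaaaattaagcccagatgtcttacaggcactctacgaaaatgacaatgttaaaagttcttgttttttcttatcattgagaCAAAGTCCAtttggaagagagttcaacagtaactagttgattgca
Cyp2c69: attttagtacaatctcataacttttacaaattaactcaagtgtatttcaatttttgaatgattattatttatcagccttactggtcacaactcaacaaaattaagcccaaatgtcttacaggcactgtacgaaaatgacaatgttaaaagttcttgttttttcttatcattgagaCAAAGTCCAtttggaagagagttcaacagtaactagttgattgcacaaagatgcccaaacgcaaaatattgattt

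Capitals mark CAAAGTCCA, letters of the kind bound by the gut and liver factor HNF4, searched on both strands and chosen after these sequences were seen. The run occurs in 4 of the 5 windows, those of Cyp2c65, Cyp2c68, Cyp2c40 and Cyp2c69, and lies 116 bases before the start of Cyp2c65 and 77, 45 and 75 bases before those of the other 3. Among 27025 promoters of all genes with the same window, 103 or 0.381% hold it, and of the 71 member promoters in RefSeq's list 9 hold it. Near-copied promoters are counted separately there. The runs GCGTG and AGATAA were searched as well. They occur in 15 and 13 of the 71 member promoters, and in 28.2% and 10.3% of all promoters. CAAAGTCCA is thus present upstream of a gene that rose and of 3 that fell. The windows of Cyp2c68 and Cyp2c69 are 91.3% identical, and those of Cyp2c68 and Cyp2c40 73.5%, with annotated starts that are offset from each other. Hnf4a itself passed no test (means 19859, 20882 and 16456 in control, DSS and AOM+DSS).

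Cyp2c68 held 3029.7, 2765 and 3018 normalized reads in the control libraries a to c, 1704, 1699, 1122 and 1209.8 in the DSS libraries a to d, and 892, 235 and 1663 in the AOM+DSS libraries a to c. Every treated library lay below every control library, with AOM+DSS b lowest. Cyp2c68 was, by the authors' deposited table, 2.05-fold lower in DSS (adjusted p = 0.0227) and 3.16-fold lower in AOM+DSS (adjusted p = 1.54e-06). Cyp2c40, which oxidises arachidonic acid in the intestine, held 311, 311 and 334 in control, 119, 133, 150.1 and 99.3 in DSS, and 72.1, 17.4 and 136 in AOM+DSS. The groups did not overlap with control, and AOM+DSS b was again lowest. Cyp2c40 was, by the authors' deposited table, 2.54-fold lower in DSS (adjusted p = 0.00143) and 4.24-fold lower in AOM+DSS (adjusted p = 7.19e-08). Cyp2c69 held 293, 205 and 233 in control, 56.1, 60.1, 86.4 and 52.7 in DSS, and 25.3, 1.65 and 99.4 in AOM+DSS. It had the largest fall of the named members in AOM+DSS, 5.78-fold (adjusted p = 3.48e-08), after 3.82-fold in DSS (adjusted p = 3.50e-05), both from the authors' deposited table. The AOM+DSS libraries of Cyp2c68 and Cyp2c69 spread so widely that limma gave adjusted p = 0.0523 and 0.0611 there. These 3 transcripts are near copies of each other. Of the 50-base windows of Cyp2c40, 72.1% also occur in another transcript, mainly Cyp2c69, and the shares are 54.8% for Cyp2c69 and 43.3% for Cyp2c68, so how the counting split their reads bears on each gene's own value. The absorptive colonocyte markers recovered in control and AOM+DSS (Slc26a3, Aqp8 and Guca2a) summed to 40980.3, 51392 and 36599 in control and to 20732, 10330.2 and 37965 in AOM+DSS, also lowest in library b. All 6 markers of that list summed to 94322, 96142 and 65209.5 in control, DSS and AOM+DSS, and none passed. By means, 3 were lower and 3 higher in DSS, and 5 were lower and 1, Krt20, higher in AOM+DSS. Car1 was lowest in AOM+DSS a. The part of colonocytes in the Cyp2c results was not tested.

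Cyp2c44, an arachidonic acid epoxygenase listed in RefSeq as Cyp2c23, lies apart from the array and has no shared windows. It held 41.5, 33.6 and 38.1 normalized reads in control, 1.58, 7.42, 1.42 and 6.20 in DSS, and 9.67, 6.62 and 11 in AOM+DSS. No treated library reached the control range. The authors' deposited table gives a 9.09-fold fall in DSS (adjusted p = 0.0198), and a mean 4.14-fold below control in AOM+DSS that did not pass (adjusted p = 0.187), and limma gave adjusted p = 0.0201 for AOM+DSS.

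Cyp2c65, an intestinal member, held 133, 560.0 and 128 in control, 739, 589, 707 and 779 in DSS, and 565, 504 and 879 in AOM+DSS. All 4 DSS libraries lay above control, but AOM+DSS b lay below control b, the library with the high fibroblast and smooth muscle markers. By the authors' deposited table, Cyp2c65 rose 2.57-fold in DSS (adjusted p = 0.0140) and 2.37-fold in AOM+DSS (adjusted p = 0.0306). By limma the log2 difference was 1.71 ± 0.45 (SE, adjusted p = 0.0646) in DSS and 1.56 ± 0.54 (adjusted p = 0.0823) in AOM+DSS. Without control b it was 2.41 ± 0.16 (adjusted p = 4.93e-04) and 2.26 ± 0.25 (adjusted p = 0.00274). Cyp2c65 shares 20.6% of its windows, mainly with Cyp2c66, whose own means were 4.37, 13.9 and 13.6. Cyp2c55, a colon-expressed hydroxylase of arachidonic acid, had the highest mean of all members in DSS. Its control libraries held 5057, 5487 and 5611 normalized reads, its DSS mean was 11517, and its AOM+DSS libraries held 6576, 1208 and 10408. The AOM+DSS libraries lay on both sides of control, and the DSS ratio of 2.14 in the authors' deposited table did not pass (adjusted p = 0.373).

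**Figure D3:**
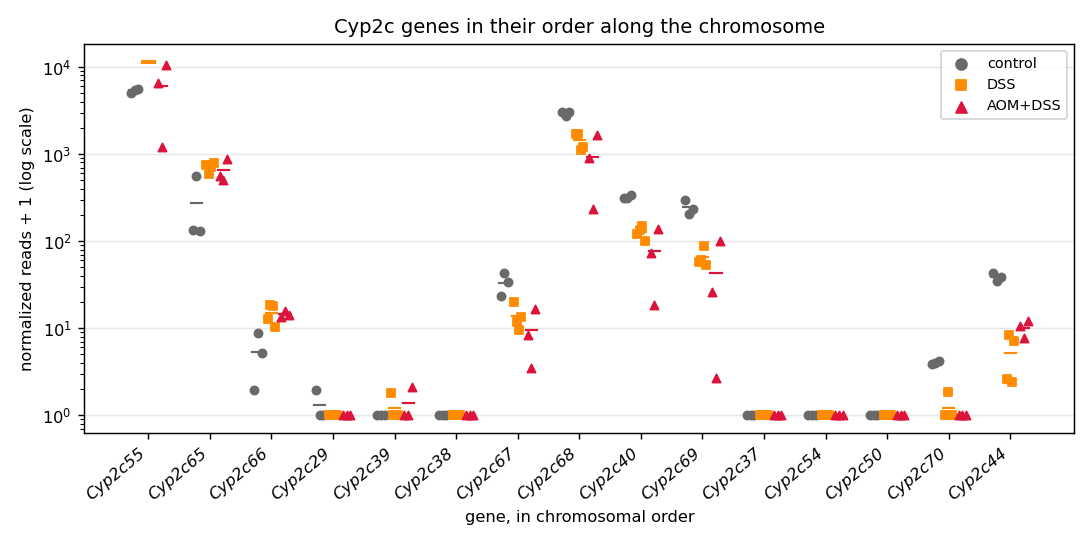
Normalized reads plus 1 (log axis) of the 15 Cyp2c genes in chromosomal order, each point a library (circles control, squares DSS, triangles AOM+DSS), with group means as short lines. For Cyp2c55 in DSS the mean alone (11517) is drawn. Cyp2c68, Cyp2c40 and Cyp2c69 lie below control in every treated library, and most genes beside them sit at or near 0.

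The Cyp2d genes, which oxidise many basic drugs and some steroids, held members that fell and none that rose. All 8 expressed members had log2 ratios below 0 in both treated groups, and their median log2 ratio was −0.66 in DSS and −0.98 in AOM+DSS. By the authors' deposited tables, 5 of 8 tested fell in each comparison, where 1.78% and 3.35% of all genes tested fell. Cyp2d34 held 8020.3, 6291 and 7499 normalized reads in control and 3532, 3718 and 5001 in AOM+DSS, with a DSS mean of 4628. The AOM+DSS libraries all lay below control. The authors' deposited table gives a 1.57-fold fall of Cyp2d34 in DSS (adjusted p = 0.0485) and a 1.78-fold fall in AOM+DSS (adjusted p = 0.0204). Cyp2d12 fell most in this subfamily. It held 2944, 1882 and 2063 in control, 486, 288, 843 and 532 in DSS, and 431, 217 and 710.4 in AOM+DSS, with a wide gap between control and treated libraries. Its falls by the authors' deposited table were 4.28-fold in DSS (adjusted p = 5.51e-06) and 5.07-fold in AOM+DSS (adjusted p = 3.33e-06).

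Cyp2d13, which RefSeq lists as a transcribed pseudogene, followed with 1123, 895 and 967 normalized reads in control, 219.7, 262, 578 and 359.8 in DSS, and 271, 198 and 359 in AOM+DSS. Control stood above every treated library, while DSS and AOM+DSS overlapped each other, and the authors' deposited table gives falls of 2.80-fold (adjusted p = 1.05e-06) and 3.61-fold (adjusted p = 6.90e-08). Cyp2d22, often taken as the mouse counterpart of the human drug-oxidising CYP2D6, held 759, 605 and 479.8 in control, 294, 260.4, 411 and 344 in DSS, and 164, 72.8 and 297 in AOM+DSS. Every treated library was below control, and by the authors' deposited table it fell 1.88-fold in DSS (adjusted p = 0.0481) and 3.45-fold in AOM+DSS (adjusted p = 6.60e-06). Cyp2d10 held 1683 to 2079 in control, 955 to 1396 in DSS and 688 to 1111 in AOM+DSS. Its falls by the authors' deposited table were 1.56-fold (adjusted p = 0.0266) and 2.0-fold (adjusted p = 2.56e-04). Cyp2d9, a testosterone hydroxylase in liver, and Cyp2d26 passed neither test: Cyp2d9 held 733 to 1369 in control, 422 to 1038 in DSS and 640.2 to 1073 in AOM+DSS, which overlap. Cyp2d26 held 472 to 619.8 in control, 405 to 459 in DSS and 263 to 426 in AOM+DSS, all treated libraries below control, and the authors' deposited tables gave adjusted p = 0.632 and 0.0651. Between these genes 40.5% of the windows of Cyp2d10 and 29.0% of those of Cyp2d9 occur in another transcript, against 6.14% for Cyp2d22.

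**Figure D4:**
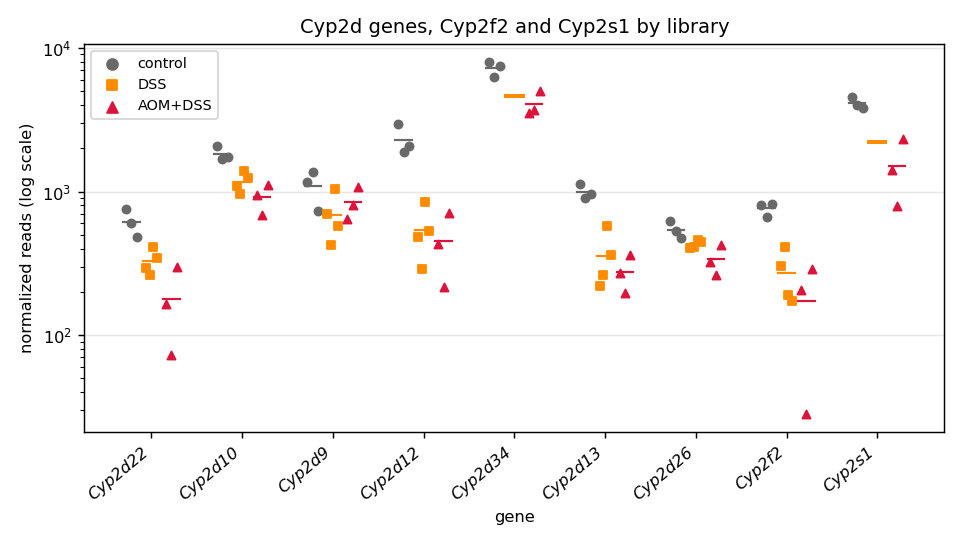
Normalized reads (log axis) of the 7 named Cyp2d genes in chromosomal order, then Cyp2f2 and Cyp2s1, each point a library (circles control, squares DSS, triangles AOM+DSS) with group means as short lines. For Cyp2d34 and Cyp2s1 in DSS the mean alone is drawn. Cyp2f2 reaches down to 28.1 in AOM+DSS b, and Cyp2d9 is the gene whose groups overlap most.

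Of the single-gene subfamilies, Cyp2s1 and Cyp2f2 fell in both groups, and neither shares a window with another transcript. Cyp2s1, a P450 of epithelia outside the liver, held 4525, 4018 and 3823 normalized reads in control and 1403, 792 and 2338 in AOM+DSS, with a DSS mean of 2203. The AOM+DSS libraries lay well below control. From the authors' deposited table, it fell 1.87-fold in DSS (adjusted p = 0.00599) and 2.73-fold in AOM+DSS (adjusted p = 6.68e-06). Cyp2f2, best known for activating naphthalene in lung airway cells, held 812, 668 and 817 in control, 305, 408, 191 and 172 in DSS, and 206, 28.1 and 287 in AOM+DSS. No treated library came near control. The authors' deposited table gives falls of Cyp2f2 of 2.84-fold (adjusted p = 9.76e-04) and 4.40-fold (adjusted p = 6.34e-08). AOM+DSS b was the lowest AOM+DSS library for 10 of the 11 members that fell, and AOM+DSS c the highest for all 11. This order was not counted over all genes. Genes outside the members, such as Vdr, Fdxr and Ppara, had it too, while Alas1 was highest in b. Of the less expressed members of family 2, Cyp2a12, Cyp2c67, Cyp2d11, Cyp2j9, Cyp2r1, Cyp2u1 and Cyp2w1 had control means of 15.8 to 78.7. All 7, taken by their control mean, were lower in both treated means and none passed in the authors' deposited tables.

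Cyp2j6, an intestinal epoxygenase, was the member of its subfamily with the highest mean and the one that rose in AOM+DSS. It held 1014, 1232 and 1037 normalized reads in control, 1509, 1486, 1297 and 1475 in DSS, and 1789.9, 1983 and 1596 in AOM+DSS. The 3 groups did not overlap and lay in that order. Cyp2j6 rose, by the authors' deposited table, 1.64-fold in AOM+DSS (adjusted p = 0.020), while its ratio of 1.32 in DSS did not pass (adjusted p = 0.389). The difference of AOM+DSS from DSS itself did not pass by limma (log2 difference 0.31 ± 0.12, adjusted p = 0.288). Cyp3a13, the only member of its subfamily expressed here and of the group that oxidises most drugs, held 3422, 2804 and 3612 in control, 1899, 1405, 3331 and 2294 in DSS, and 1786, 1864 and 2728 in AOM+DSS. DSS c overlapped control, and all AOM+DSS libraries lay below it. Cyp3a13 did not pass by the authors' deposited tables (adjusted p = 0.241 and 0.191), and limma gave adjusted p = 0.0459 for AOM+DSS.

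The Cyp4f genes, which hydroxylate leukotrienes and other lipids at the chain end, split in direction. Counted from the authors' deposited tables, 2 of 8 tested rose in DSS, and 1 rose and 1 fell in AOM+DSS. Of all genes tested, 4.39% passed in DSS and 8.89% in AOM+DSS. Cyp4f40 held 827, 735 and 771 normalized reads in control, 1462, 1775, 1124 and 1208 in DSS, and 1431, 1012 and 949 in AOM+DSS. Every treated library lay above control. Cyp4f40 rose, by the authors' deposited table, 1.79-fold in DSS (adjusted p = 0.00815), and its AOM+DSS ratio of 1.45 did not pass (adjusted p = 0.164). Its neighbours on chromosome 17 went the other way or passed no test. Cyp4f13 held 1529, 1363 and 1783 in control, 895, 882, 1643 and 1512 in DSS, and 802, 687 and 1107 in AOM+DSS. In DSS, libraries a and b lay below control and c and d inside it. Cyp4f13 fell, by the authors' deposited tables, 1.80-fold in AOM+DSS (adjusted p = 0.0447) and gave adjusted p = 0.551 in DSS. Cyp4f14, a leukotriene and vitamin E hydroxylase, held 2653, 3359 and 2517 in control, 2004, 1570.4, 3714 and 3007 in DSS, and 1672, 1486 and 2644 in AOM+DSS, and Cyp4f16 held 2219 to 2695, 1232 to 2526 and 917 to 2063. Neither passed in the authors' deposited tables, where Cyp4f16 came closest in AOM+DSS (adjusted p = 0.0519).

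Cyp4f18 lies apart from that row and is the leukotriene B4 hydroxylase of neutrophils and other myeloid cells. It held 10.6, 45.4 and 5.30 normalized reads in control, 270.3, 188, 113 and 126 in DSS, and 84.8, 246 and 117 in AOM+DSS. All treated libraries lay above all control libraries. The authors' deposited table gives rises of Cyp4f18 of 8.52-fold in DSS (adjusted p = 5.53e-04) and 7.31-fold in AOM+DSS (adjusted p = 0.00217). By limma, adjusted p was 0.0174 and 0.0288, and 0.0605 in DSS without libraries a and b. The summed myeloid markers were 201, 1189 and 101 in the control libraries a to c, 2148, 5058, 343 and 383 in the DSS libraries a to d, and 5142, 13496 and 3862 in the AOM+DSS libraries a to c. Within control and within AOM+DSS, library b was highest for both the sum and Cyp4f18, and in DSS both were higher in a and b than in c and d. The pattern in control and DSS was not particular to myeloid markers. Summed T and NK cell markers were 129, 408 and 98.5 in control, 2039, 405, 287 and 388 in DSS, and 351, 407 and 568 in AOM+DSS. Summed B and plasma cell markers (3 recovered) were 122, 550.1 and 79.4, then 5770.2, 1919, 1226 and 1287, then 257, 119 and 547. Of the myeloid markers, by the authors' deposited tables, 3 of 8 rose in DSS and 5 of 8 in AOM+DSS, where 2.61% and 5.54% of all genes tested rose. Csf1r, the receptor that defines macrophages, held 29.0, 124 and 7.41 in control and 347, 732 and 292 in AOM+DSS. The part of myeloid or lymphocyte RNA in the Cyp4f18 result was not tested. Cyp4v3, counterpart of a human fatty acid hydroxylase of the eye, held 325 to 399 in control, 168 to 397 in DSS and 283 to 350.2 in AOM+DSS, with overlap in both comparisons.

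The sterol and orphan enzymes passed no test. Cyp27a1, the mitochondrial sterol hydroxylase of bile acid synthesis, held 842, 437 and 799.7 normalized reads in control, 553, 615, 558 and 504 in DSS, and 824, 754 and 690.5 in AOM+DSS. Control b was lowest, and the groups overlapped with control. Cyp39a1, an oxysterol hydroxylase, held 445 to 617 in control, 380.0 to 549 in DSS and 265 to 457 in AOM+DSS. Cyp20a1, an enzyme with no settled substrate, held 249 to 278, 140.2 to 341 and 293 to 309. Cyp7a1 and Cyp8b1, the liver enzymes of bile acid synthesis, and Cyp46a1, the cholesterol hydroxylase of brain, stayed under 10 in every group. Cyp24a1, which inactivates vitamin D, and Cyp27b1, which activates it, were under 10 and at most 10.1 normalized reads. The retinoid hydroxylase Cyp26b1 had means of 10.7, 3.70 and 4.79 in control, DSS and AOM+DSS and passed no test.

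Among the steroid hormone enzymes, Cyp21a1 gave no read in control and rose in AOM+DSS. This steroid hydroxylase of the adrenal cortex held 0 reads in all 3 control libraries, 4.74, 10.7, 1.42 and 3.10 normalized reads in DSS, and 212, 245 and 48.6 in AOM+DSS. The AOM+DSS libraries lay far above the DSS libraries, and these above control. As the floor that a count of 0 allows, 3 reads over the control group were taken. The pooled level of Cyp21a1 was 180.2-fold this floor in AOM+DSS and 5.73-fold in DSS. The floor covers counting error in control only. The pooled AOM+DSS level of 181 normalized reads weighs deeper libraries more and lies above the group mean of 168, so 180.2 is an estimate and not a lower bound. The authors' deposited table gives adjusted p = 1.37e-04 for AOM+DSS and 0.194 for DSS. Of its windows, 23.7% occur in another transcript, mainly the pseudogene Cyp21a2-ps, and in RefSeq it overlaps Tnxa and lies beside the complement gene C4a. C4a held 17.4, 22.7 and 24.4 in control and 33.5, 39.7 and 27.6 in AOM+DSS. C4b, also read for this region, held 14.5, 151 and 7.41 in control and 183, 325 and 313 in AOM+DSS. By the authors' deposited table C4b rose in AOM+DSS (adjusted p = 0.00721), while C4a, Tnxb and Stk19 did not pass. The library kit does not mark strand, and reads of genes that overlap could not be told apart. Cyp11a1, which starts steroid synthesis from cholesterol, held 51.2, 10.9 and 25.4 in control, 5.53, 2.47, 2.83 and 1.55 in DSS, and 14.1, 24 and 59.7 in AOM+DSS. The DSS libraries lay below all others, while control and AOM+DSS overlapped. Cyp11a1 did not pass in DSS by the authors' deposited table (adjusted p = 0.0733), and limma gave adjusted p = 0.0352. Cyp11b1 and Cyp11b2, which finish corticosteroid synthesis, Cyp17a1, which leads to androgens, and Cyp19a1, the aromatase, were under 10 in every group.

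**Figure D5:**
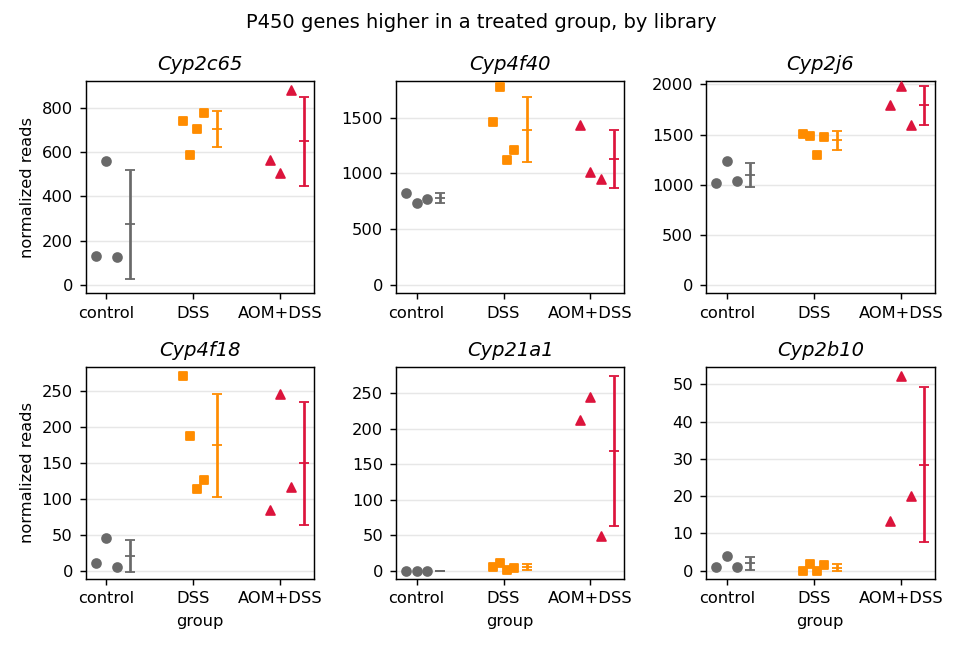
Normalized reads by library in control, DSS and AOM+DSS for 6 P450 genes that were called higher in at least 1 comparison, each panel on its own linear axis, with mean and SD (3, 4 and 3 libraries) beside the points. Cyp2c65 shows control b at 560.0 apart from 133 and 128, and Cyp21a1 is at 0 in control and 48.6 to 245 in AOM+DSS.

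Between the treatments, 3 of 70 tested members differed by limma at an adjusted p under 0.05, all higher in AOM+DSS, where 2.43% of all genes tested passed (2.35% higher). They were Cyp21a1 (log2 difference 4.76 ± 0.72, SE, adjusted p = 0.0127), Cyp2b10 (3.96 ± 0.62, adjusted p = 0.0147) and Cyp11a1 (2.88 ± 0.60, adjusted p = 0.0431). Cyp2b10, the classic target of the receptor CAR, held 0.965, 3.95 and 1.06 normalized reads in control, 0, 1.65, 0 and 1.55 in DSS, and 13.4, 52.1 and 19.9 in AOM+DSS. The AOM+DSS libraries lay above all others, with b highest. Its pooled level in AOM+DSS was 14.3-fold that of control, from 99 and 6 reads, and the authors' deposited table gives adjusted p = 0.163 there, while limma gave a log2 difference of 3.21 ± 0.65 (adjusted p = 0.0179). Without AOM+DSS b no member passed, where 0.561% of all genes did. The log2 differences were then 4.34 (adjusted p = 0.0782) for Cyp21a1, 3.43 (adjusted p = 0.0660) for Cyp2b10 and 2.97 (adjusted p = 0.143) for Cyp11a1. Without AOM+DSS a, where 0.520% of all genes passed, Cyp2b10 alone passed (adjusted p = 0.0491), Cyp21a1 had adjusted p = 0.0837, and Cyp11a1 was lost by leaving out any 1 library except DSS a (adjusted p from 0.0655 to 0.143). No member passed as lower in AOM+DSS, where 0.0838% of all genes did. Of 35 members with a DSS mean of at least 10, 27 had a log2 ratio of means below 0. Their median was −0.35, against −0.04 over all genes with such a DSS mean. This cut on the DSS mean leaves out Cyp21a1, Cyp2b10 and Cyp11a1, whose DSS means were 4.99, 0.800 and 3.10. It thus favours ratios below 0, and the share of all genes below 0 was not counted.

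The DSS libraries differed among themselves by pairs. Of 35 expressed members recovered in DSS, 12 were lower in both a and b than in both c and d, 11 were higher, and 12 overlapped. This was not counted over all genes, so it cannot be read as a trait of P450 genes. The first set held Cyp4f13, Cyp4f14, Cyp4f16, Cyp3a13 and 5 Cyp2d genes. Cyp2f2, Cyp2c68, Cyp4f18, Cyp4f40, Cyp20a1 and Cyp4v3 belonged to the second. Without libraries a and b, limma called 11 of 64 members in DSS, where 8.94% of all genes passed, and without c and d 16 of 66, where 11.1% passed. Cyp2d10 and Cyp2d22 were lost without a and b, while Cyp4f13 and Cyp4f16 were called lower without c and d. Leaving out these pairs was chosen after seeing the data.

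Partners of the P450 enzymes were read from a list of 8 genes in the tables for electron donors and haem supply. Counted from the authors' deposited tables, 1 rose in DSS, and 1 rose and 1 fell in AOM+DSS, where 4.39% and 8.89% of all genes tested passed. Alas1, the rate-setting enzyme of haem synthesis, held 2288, 2908 and 1629 normalized reads in control and 5315, 6654 and 4571 in AOM+DSS, with a DSS mean of 4699. Its log2 ratios by the authors' deposited table were 1.05 (adjusted p = 8.48e-04) in DSS and 1.28 (adjusted p = 4.20e-06) in AOM+DSS, opposite in sign to most P450 genes. Fdxr, ferredoxin reductase of the mitochondrial P450 chain, held 577, 435 and 673 in control, 353, 328, 498 and 507 in DSS, and 303, 203 and 377 in AOM+DSS, and by the authors' deposited table it fell by 0.93 on the log2 scale in AOM+DSS (adjusted p = 0.0132). The 2 donor genes with the highest means, Cyb5b and Por, passed no test: Cyb5b had means of 7888, 7681 and 6605, and Por, the reductase that serves all microsomal P450 enzymes, had 2974, 2829 and 2737.

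Of 18 receptors and transcription factors known to act on P450 genes, by the authors' deposited tables none rose, 3 fell in DSS and 4 in AOM+DSS. Of all genes tested, 1.78% fell in DSS and 3.35% in AOM+DSS, and 2.61% and 5.54% rose. Nr1i3, the receptor CAR, held 148, 182 and 78.4 normalized reads in control, 48.2, 35.4, 52.4 and 38.8 in DSS, and 37.2, 62.9 and 65.2 in AOM+DSS. All treated libraries lay below control. By the authors' deposited table its log2 ratio to control was −1.64 in DSS (adjusted p = 0.00924) and −1.30 in AOM+DSS (adjusted p = 0.0531). Between AOM+DSS and DSS, where its target Cyp2b10 was higher in AOM+DSS, Nr1i3 did not pass by limma (log2 difference 0.30 ± 0.35, adjusted p = 0.740). Nr1h3, the oxysterol receptor LXR alpha, fell by 0.93 in DSS (adjusted p = 0.00168) and by 1.26 in AOM+DSS (adjusted p = 4.32e-05), log2 values from the authors' deposited table. Vdr, the vitamin D receptor, fell by 0.65 (adjusted p = 0.0376) and by 1.06 (adjusted p = 6.55e-05), again from the authors' deposited table. By the authors' deposited table for AOM+DSS, Ppara, the fatty acid receptor, fell by 0.98 (adjusted p = 0.00934) and Nr5a2, a crypt factor of steroid and bile acid genes, fell by 1.06 (adjusted p = 5.19e-04), and their DSS ratios of −0.61 each did not pass. Of 4 epoxide hydrolases, which open the epoxides that P450 enzymes make, Ephx2 alone passed. It held 754, 712 and 658 in control, 363, 366, 511 and 487 in DSS, and 421, 329 and 463 in AOM+DSS, and by the authors' deposited table it fell by 0.71 (adjusted p = 0.0302) and 0.81 (adjusted p = 0.020) on the log2 scale. Ephx1, the other epoxide hydrolase with a high mean, had means of 460.2, 517 and 628.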

How the data were processed

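RNA from 10 libraries (3 control, 4 DSS, 3 AOM+DSS) was mapped to mm9 with TopHat2 2.0 and compared with DESeq, per the submitters' processing notes. Counter, annotation and strand setting: not given in the sources used here. Per the file headers, each of the 2 deposited tables gives signal values (group means of normalized reads), the authors' fold change and its log2, and p-values with their adjustment. The header of the AOM+DSS table speaks of a 4th replicate, whereas 3 are labelled, and its overall mean is that of 3 and 3 libraries. Whole reads per library were recovered where exactly 1 combination gave the printed mean, or where the other printed values left 1 of several. This held for 99.6%, 87.8% and 99.8% of genes of control, DSS and AOM+DSS. The other printed values settled 37 genes in control, 466 in DSS and 0 in AOM+DSS. In simulated data (3000 genes per group) 100%, 89.7% and 100% were recovered, 0 wrongly.

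The authors' adjusted p under 0.05 made the calls against control. As no table compares AOM+DSS with DSS, limma 3.58.1 with R 4.3.3 tested log2(normalized reads + 1), with a mean trend, over genes recovered in both groups. On simulated data it found 69% of 2-fold and 100% of 4-fold changes there. The changed genes were drawn from well expressed genes only, and every gene had the same spread. The members that limma called there had DSS means of 0.800 to 4.99, a level the simulation did not cover. Named were members called in any of the 3 comparisons or with a mean of at least 100 in a group, and from the partner lists the called genes and the 2 of each role with the highest means. Members named below that level, Cyp1b1, Cyp2a12, Cyp2c66, Cyp2c70, Cyp4a10 and Cyp26a1 among them, were chosen after their values were seen. Members and lists were chosen with earlier results of these data known. Alternatives were other tests, thresholds, pseudocounts, scalings and left-out libraries. Names, neighbours and promoters came from RefSeq on GRCm38.p6, and transcript lengths and shared 50-base windows from GENCODE M21.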

Additional observations from a re-analysis of the deposited data

Results flagged for a closer look

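Cyp2j6 in the DSS library c, at 1297 normalized reads, lay far from the other 3 DSS libraries, which held 1475 to 1509. It was the only 1 of 46 named or listed genes recovered in DSS with such a library, and chance alone puts about 1 in 20 groups of this size past the limit used. Cyp21a1, Cyp2b10 and Cyp11a1 differed between AOM+DSS and DSS by limma, with log2 differences of 4.76 (adjusted p = 0.0127), 3.96 (adjusted p = 0.0147) and 2.88 (adjusted p = 0.0431). Each was higher in 3 of 3 AOM+DSS libraries than in all 4 DSS libraries.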

How the results depend on the processing

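No paired analysis was possible because nothing links a recovered library to a labelled replicate number. The 14 members called in DSS became 15 by limma, 15 at an adjusted p under 0.1 and 14 with the authors' p adjusted again over genes with a mean of 10 or more, and limma without 1 library gave 1 to 14. The 15 called in AOM+DSS became 19, 17 and 16 in these settings, and 2 to 25 without 1 library. The 3 members that differed between the treatments stayed at 2 to 4 under the other pseudocounts, scaling, filter and threshold, were 0 to 4 without 1 library, 6 of 69 without DSS libraries a and b (where 9.42% of all genes passed) and 0 of 68 without c and d (where 0.338% passed). At a control mean of at least 50 the expressed members numbered 25, at 1 they numbered 51. Turned in sign against the ratio of means: Cyp2c55 in AOM+DSS by limma (−0.30, and −0.93 to 0.62 without 1 library), Cyp11a1 in AOM+DSS without control b (−0.39) or AOM+DSS c (−0.38; −0.39 to 0.68 over the left-out libraries), Cyp27a1 in AOM+DSS without control b (−0.12; −0.12 to 0.35 over the left-out libraries), and in DSS Cyp20a1 without libraries c and d (0.25), Cyp4f13 (0.03) and Cyp4f14 (0.25) without a and b; none of these had passed the test. The cause was not tested. The 3 members not recovered in DSS have no limma value there, and the size factors of DSS c and d (0.706 and 0.645) were the lowest of all libraries.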

Other observations

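A few members near the detection limit were called by limma and not by the authors' test. Cyp4a10, a fatty acid hydroxylase under the receptor PPAR alpha, held 0.965, 0.988 and 0 normalized reads in the control libraries, 8.69, 19, 5.66 and 4.65 in DSS, and 2.97, 0 and 1.10 in AOM+DSS. All DSS libraries lay above the rest, with adjusted p = 0.0323 by limma and 0.434 in the authors' deposited table. Cyp2c70, the mouse enzyme that makes muricholic bile acids, held 2.90, 2.96 and 3.18 in control and 0 in 3 of 4 DSS libraries and all 3 AOM+DSS libraries, with adjusted p = 0.0271 and 0.0116 by limma and 0.971 and 0.855 in the authors' deposited tables. The retinoic acid hydroxylase Cyp26a1 held 2.90, 0.988 and 4.24 in control and 0 in all 3 AOM+DSS libraries, with adjusted p = 0.0352 by limma and 0.860 in the authors' deposited table. Cyp2a12 held 17.4, 7.90 and 22.2 in control and 0, 0 and 5.52 in AOM+DSS, with adjusted p = 0.0402 by limma and 0.212 in the authors' deposited table. Cyp51, the sterol demethylase of cholesterol synthesis that the naming rule leaves out, had means of 4358, 3841 and 3838 in control, DSS and AOM+DSS and passed no test.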
